A study of Homo sapiens with 6 samples.

Results

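The genes described here encode the machinery that takes a cell from G2 through mitosis: cyclins and mitotic kinases, spindle kinesins, kinetochore and centromere proteins, the spindle checkpoint and the ubiquitin ligase APC/C, cytokinesis proteins, spindle microtubule proteins, and 2 proteins of chromosome structure. They are a list of 44 gene symbols, taken by name and in 7 classes. The list was chosen with earlier results of these data known. Counts set beside the share of all genes therefore describe this list and are not those of unselected genes. A gene was read from the array probe set that carries its symbol alone, with the highest mean over the arrays where there were several. In all, 43 of the 44 genes had such a probe set, among 18417 genes. CENPA, the centromeric histone, had 1 probe set, which carries 2 symbols, so it has no value here.

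The study measured RNA on 6 Affymetrix arrays, 1 for each of 6 cultures. The HCT116 line derives from a human colorectal carcinoma, and its derivative HCT116-p53KO is labelled as lacking p53. Each was transfected with control siRNA or with siRNA against NRF3 and harvested after 48 h. H1299 comes from a human lung carcinoma of the non-small cell kind and stably carried a plasmid for GFP or NRF3 after G-418 selection. NRF3 is the transcription factor encoded by NFE2L3. Nothing in the labels tells whether the stable and knockout lines are single clones. With 1 array per group, a difference within a line has no replicate error, and it is given as a difference of RMA log2 intensities. The 1.5-fold size used for counting is a size and not a test.

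Transcripts of these genes rise together as cells near division. In resting cells many of their promoters are held down by the DREAM complex, and in G2 the same MuvB core works with the activators B-MYB and FOXM1. Both are known to act through a short promoter element, the cell cycle genes homology region (CHR), often near boxes of the factor NF-Y. As background, p53 is known to lower many of these genes through p21 and DREAM.

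NFE2L3 itself followed the labels in each pair. It stood at 8.97 without and 6.62 with the knockdown in HCT116, at 8.71 and 7.15 in HCT116-p53KO, and at 8.18 with GFP and 10.20 with NRF3 in H1299. The reduction was 5.11-fold in HCT116 and 2.94-fold in HCT116-p53KO, so the knockdowns compared below were not of equal size, and the part of this in the results was not tested. The epithelial marker EPCAM lay between 10.91 and 11.42 on the 4 HCT116-family arrays and the mesenchymal marker VIM at 12.08 and 12.45 in H1299. Not every marker split this way. In H1299 the epithelial EPCAM, CDH1 and KRT19 were under 6, but KRT8 (10.10 and 10.30) and KRT18 (10.99 and 11.13) were not. The mesenchymal CDH2 was at 8.20 and 9.11 in H1299 and under 6 on the HCT116-family arrays. TWIST1 (7.65 and 7.66) and FN1 (7.07 and 6.30) in H1299 had similar values on the HCT116-family arrays. Of 6 colon epithelial markers measured, CDX2 lay between 8.39 and 8.69 on the HCT116-family arrays, while CDH17 and VIL1 were under 6 there. The H1299 arrays have a lower overall distribution of values, so levels are not set against those of HCT116.

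After NRF3 siRNA in HCT116, 41 of the 43 genes were lower and 34 were lower by 1.5-fold or more, where 48.4% and 6.02% of all 14034 expressed genes were. At 2-fold the count was 13, against 1.03% of genes. The median difference was -0.75, and it was 0.01 over all genes. None of the 43 was higher by 1.5-fold, against 2.71% of genes. In HCT116-p53KO the same siRNA gave 29 lower genes (background 49.5%), 3 of them by 1.5-fold (background 2.38%) and 0 higher by that size (background 3.63%), with a median of -0.15 against 0.00 for all genes. In H1299 with NRF3, 32 of 43 were higher, 1 of them by 1.5-fold (background 4.82%), and 0 were lower by that size (background 4.20%), with a median of 0.10. A lower level in a culture can come from fewer cells in G2 and mitosis or from less transcript per cell, and these arrays cannot tell them apart.

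**Figure D1:**
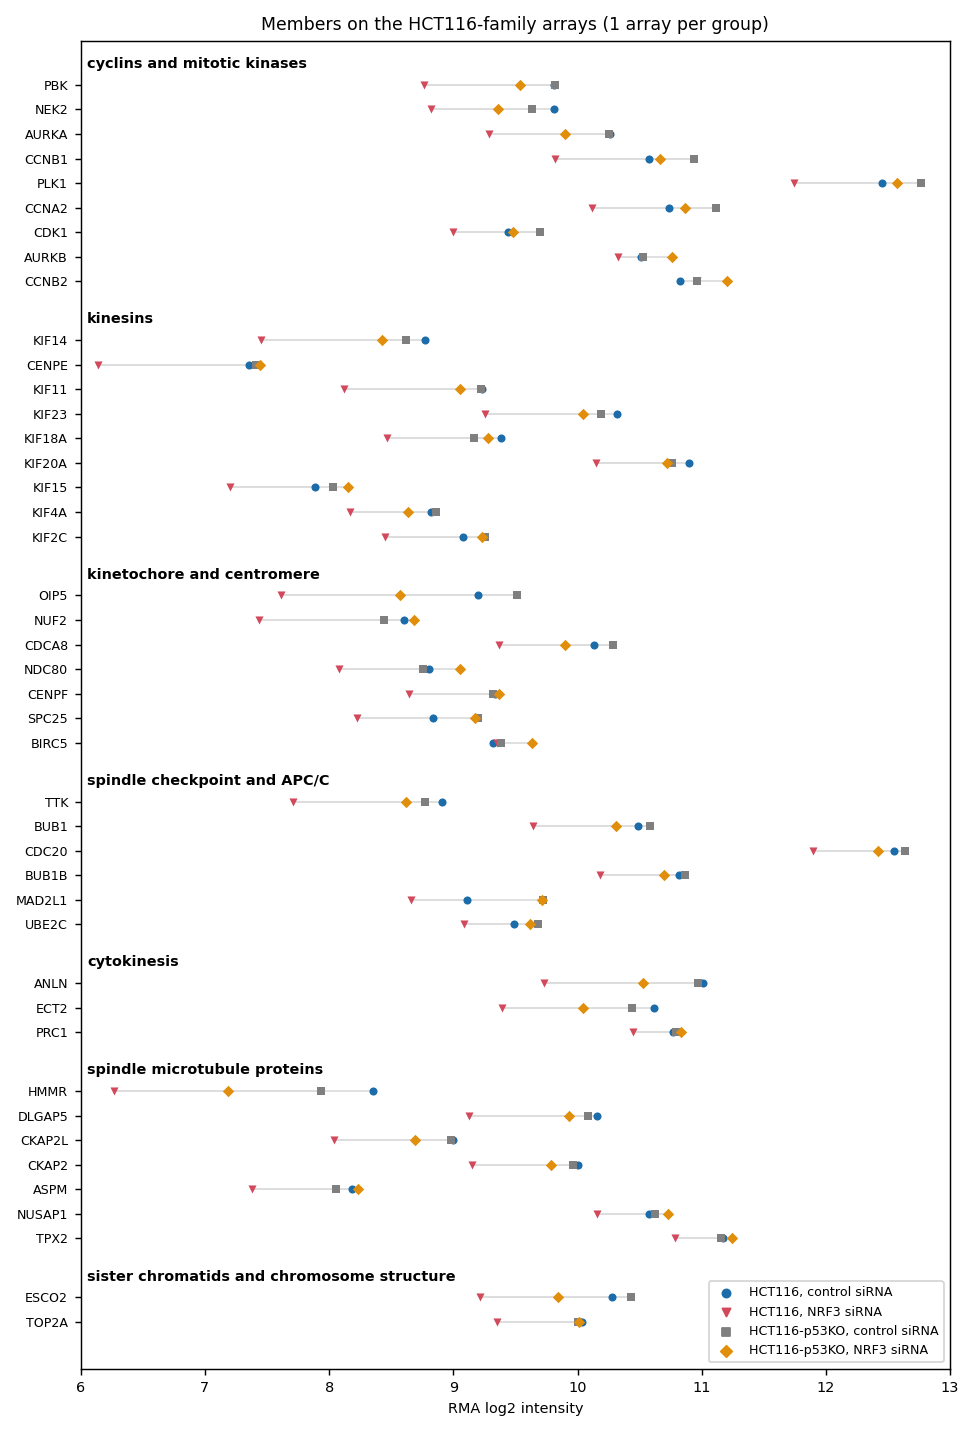
RMA log2 intensity of the 43 genes on the 4 HCT116-family arrays, 1 point per array, grouped by class and ordered by the difference in HCT116. The triangle of HCT116 with NRF3 siRNA is the leftmost point for 41 of 43 genes, while the other 3 arrays lie within a median range of 0.27.

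The low values sat on 1 array. HCT116 with NRF3 siRNA was the lowest of the 4 HCT116-family arrays for 41 of 43 genes, against 31.7% of 14148 genes. For 38 of the 43 its gap below the other 3 arrays was wider than the whole range of those 3, against 12.6% of genes. The median gap was 0.65 beside a median range of 0.27. HMMR and MAD2L1 were lowest there but spread more widely over the other arrays, AURKB had a gap of 0.19, and CCNB2 and BIRC5 were lowest with control siRNA in HCT116. Between the control siRNA arrays of both lines the median was 0.01, with 38 of 43 genes less than 0.32 (log2) apart, near the 85.9% of all genes that were.

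The promoters are shown here because most of the genes were low together in HCT116. RefSeq promoter windows (GRCh38.p14, 250 bases before to 50 after the annotated start) matched 37 of the 44 genes, 3 of them with more than 1 window. CHR letters (TTTGAA or TTCGAA, both strands) were in the windows of 29 of 37 genes, or 78.4%, against 15.0% of 11008 expressed genes and 16.4% of all 35116 windows. Within 50 bases of the start the counts were 25 of 37 and 4.60% of expressed genes. The NF-Y box (CCAAT, both strands) was in 29 of 37, against 41.7%, and 24 genes held both elements, against 7.71%. E2F letters (TTTCCCGC or TTTGGCGC, both strands) were in 4 of 37 against 4.27%, and the antioxidant response element core (TGACNNNGC, both strands), the kind of site that NRF factors with small MAF partners are known to bind, was in 5 of 37, or 13.5%, against 19.3%. Members were listed by function, with earlier results of these data known, and CHR elements are well known in such genes. These shares therefore describe the list.

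The stretches below surround the CHR match nearest the start in the 6 genes with the lowest differences in HCT116 among those with a match, followed by CCNB2, which was added after its value was seen because it was not lower. Capitals mark CHR letters and, where present, NF-Y boxes. Stretches around a match after the start are shorter. They leave out NF-Y boxes further upstream in the windows of OIP5 (3), KIF14 (1) and ECT2 (3), while NUF2 has none. Each runs 5′ to 3′ on the strand of the gene.
HMMR: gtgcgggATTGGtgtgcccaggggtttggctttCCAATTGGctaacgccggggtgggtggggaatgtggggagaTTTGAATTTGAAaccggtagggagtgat
OIP5: gcctggcgtgtaTTCGAAaggaaggcgccg
KIF14: gcggggcgcccaTTCAAAttgcggccttct
ANLN: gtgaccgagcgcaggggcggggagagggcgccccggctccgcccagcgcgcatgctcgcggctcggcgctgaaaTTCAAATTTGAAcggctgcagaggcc
ECT2: agcagcttagttTTTGAAtcggttgtgg
NUF2: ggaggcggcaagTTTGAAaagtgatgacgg
CCNB2: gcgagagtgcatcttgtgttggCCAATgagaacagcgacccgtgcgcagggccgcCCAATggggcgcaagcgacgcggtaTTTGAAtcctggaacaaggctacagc
The HMMR stretch (chr5:163460530-163460631, plus strand) ends at the base before the start and has 2 CHR matches in tandem, with 3 NF-Y boxes of which 2 overlap on opposite strands. ANLN (chr7:36389762-36389861, plus strand) has a CHR match on each strand side by side and no NF-Y box in its window. The matches of OIP5 (chr15:41332573-41332602, minus strand) and KIF14 (chr1:200620733-200620762, minus strand) begin at the second base of the transcript. Those of ECT2 (chr3:172750748-172750775, plus strand) and NUF2 (chr1:163321958-163321987, plus strand) lie further downstream. CCNB2 (chr15:59105037-59105142, plus strand) has the CHR letters with 2 NF-Y boxes upstream in the stretch, and its difference in HCT116 was 0.14.

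**Figure D2:**
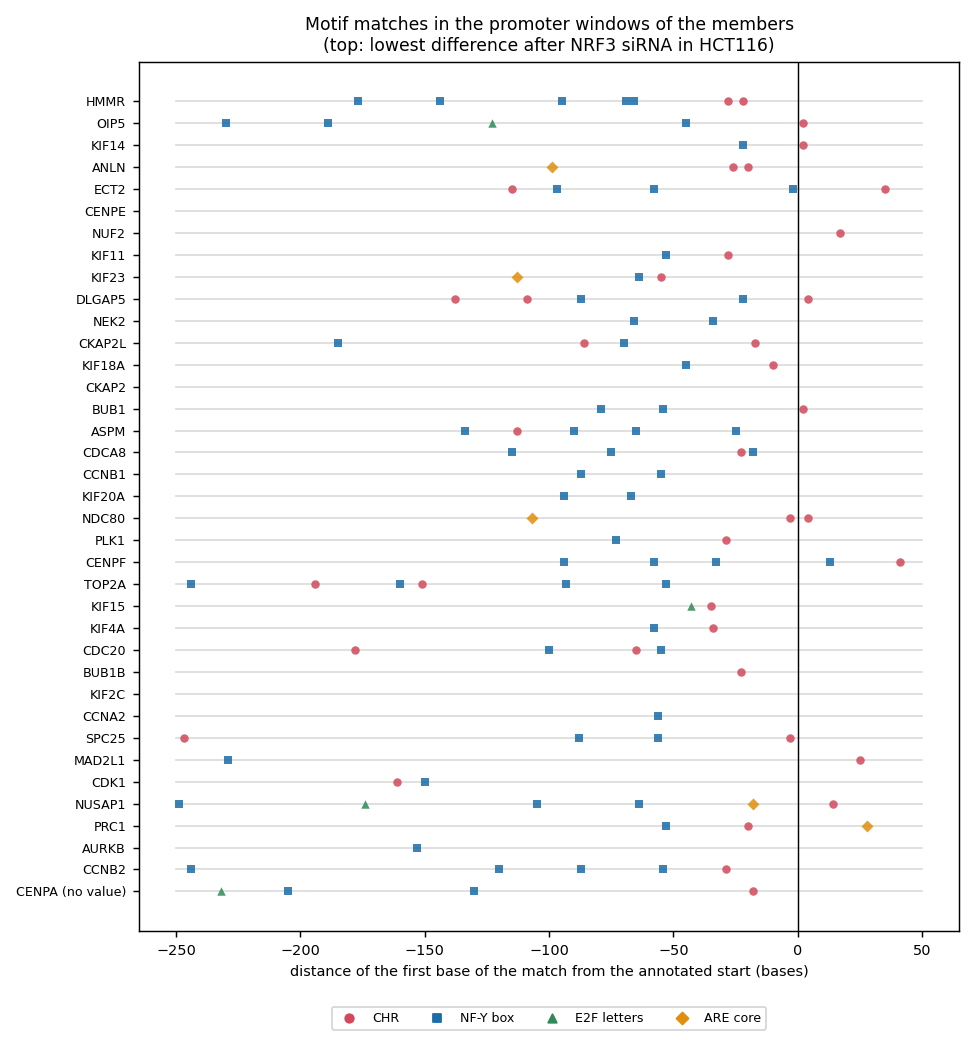
Positions of motif matches in the promoter windows of 37 genes, in bases from the annotated start (0), with the lowest difference after NRF3 siRNA in HCT116 at the top. The first listed window is drawn for CDK1, ECT2 and AURKB, and most CHR matches (circles) lie near the start, with NF-Y boxes (squares) mostly upstream of it.

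The 28 measured genes with CHR letters had a median difference of -0.75 in HCT116, and the 8 without had -0.75 as well. CENPE, NEK2, CKAP2, CCNB1, KIF20A, KIF2C and CCNA2 had no CHR letters in the window and were lower by 1.5-fold or more. In HCT116-p53KO the medians were -0.16 with and -0.11 without.

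Of the cyclins and mitotic kinases, which drive entry into mitosis, 8 of 9 were lower in HCT116, 6 by 1.5-fold, with a median of -0.71. PBK, a mitotic kinase, stood at 9.81 with control and 8.76 with NRF3 siRNA in HCT116, 9.81 and 9.54 in HCT116-p53KO, and 7.60 with GFP and 7.41 with NRF3 in H1299. NEK2, which acts in centrosome separation, stood at 9.81 with control and 8.82 with NRF3 siRNA in HCT116, 9.63 and 9.36 in HCT116-p53KO, and 8.10 with GFP and 7.99 with NRF3 in H1299. AURKA, the kinase of spindle poles, stood at 10.26 with control and 9.29 with NRF3 siRNA in HCT116, 10.25 and 9.90 in HCT116-p53KO, and 9.46 with GFP and 9.47 with NRF3 in H1299. In each of these the HCT116 array with NRF3 siRNA was the lowest of the 4 HCT116-family arrays. The differences in HCT116 were -1.05, -0.99 and -0.97, or 2.06-, 1.98- and 1.96-fold lower, beside -0.28, -0.28 and -0.35 in HCT116-p53KO.

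The cyclins differed among themselves. CCNB1, the main partner of CDK1 at mitotic entry, was at -0.75 in HCT116 and -0.27 in HCT116-p53KO. CCNB2, the second B-type cyclin, was at 0.14 and 0.24, higher in both lines. CCNA2, cyclin A2, was at -0.62 and -0.25, CDK1 itself at -0.44 and -0.21, and PLK1, the polo kinase of mitotic entry, at -0.71 and -0.19. AURKB, the kinase of the chromosomal passenger complex, was at -0.19 and 0.23. In H1299 the 9 genes had a median of -0.10, with CCNA2 the highest at 0.39 and CCNB1 the lowest at -0.23.

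All 9 kinesins were lower by 1.5-fold or more in HCT116, with a median of -0.92, and none was in HCT116-p53KO, where the median was -0.04. KIF14, a motor of cytokinesis, stood at 8.77 with control and 7.45 with NRF3 siRNA in HCT116, 8.62 and 8.43 in HCT116-p53KO, and 7.78 with GFP and 7.59 with NRF3 in H1299. CENPE, the motor that carries chromosomes at kinetochores, stood at 7.35 with control and 6.14 with NRF3 siRNA in HCT116, 7.41 and 7.45 in HCT116-p53KO, and 6.97 with GFP and 6.96 with NRF3 in H1299. KIF11, which pushes spindle poles apart, stood at 9.23 with control and 8.12 with NRF3 siRNA in HCT116, 9.22 and 9.05 in HCT116-p53KO, and 8.07 with GFP and 8.60 with NRF3 in H1299. These were 2.50-, 2.31- and 2.16-fold lower in HCT116. For CENPE the other 3 HCT116-family arrays lay within 0.09 of each other, and its array with NRF3 siRNA in HCT116 was 1.21 below them.

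The other kinesins ranged from -1.06 to -0.63 in HCT116. KIF23, a centralspindlin subunit, was at -1.06 and KIF18A, which limits microtubule length, at -0.92. KIF20A, a motor of the spindle midzone, was at -0.75, KIF15, which can share the work of KIF11, at -0.68, the chromokinesin KIF4A at -0.65 and the microtubule depolymerase KIF2C at -0.63. In HCT116-p53KO these 6 lay between -0.23 for KIF4A and 0.12 for KIF15. In H1299 KIF11 (0.53), KIF15 (0.52) and KIF20A (0.45) were the highest kinesins and KIF14 (-0.19) the lowest, all short of 1.5-fold.

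Of 7 kinetochore and centromere genes with a value, 6 were lower by 1.5-fold in HCT116, with a median of -0.73, and the median in HCT116-p53KO was 0.05. OIP5, a Mis18 subunit that prepares centromeres for new CENP-A, stood at 9.20 with control and 7.61 with NRF3 siRNA in HCT116, 9.52 and 8.57 in HCT116-p53KO, and 8.15 with GFP and 8.40 with NRF3 in H1299. It was low with NRF3 siRNA in both lines, 3.01-fold in HCT116 and 1.93-fold in HCT116-p53KO, the latter being the lowest of all 43 genes there. NUF2, part of the NDC80 complex that grips microtubules, stood at 8.60 with control and 7.43 with NRF3 siRNA in HCT116, 8.44 and 8.68 in HCT116-p53KO, and 8.03 with GFP and 8.12 with NRF3 in H1299. It was 2.25-fold lower in HCT116 and 1.18-fold higher in HCT116-p53KO. CDCA8, the passenger complex subunit borealin, stood at 10.14 with control and 9.37 with NRF3 siRNA in HCT116, 10.28 and 9.90 in HCT116-p53KO, and 9.81 with GFP and 9.86 with NRF3 in H1299.

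The subunits of the NDC80 complex differed in size. NDC80 was at -0.73 and SPC25 at -0.61 in HCT116, and at 0.30 and -0.02 in HCT116-p53KO, beside NUF2 at -1.17 and 0.24. SPC24, the fourth subunit and not one of the 44 genes, was at -0.08 and 0.21. CENPF, an outer kinetochore protein, was at -0.69 and 0.05. BIRC5, the passenger complex subunit survivin, was the exception at 0.03 and 0.25, while its partner CDCA8 was at -0.77 and -0.38. BIRC5 had a second, dimmer probe set at -0.28 and 0.07. NDC80 was the highest of the class in H1299, at 0.48.

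The 6 genes of the spindle checkpoint and APC/C were all lower in HCT116, 4 by 1.5-fold, with a median of -0.65. TTK, the kinase that starts checkpoint signalling, stood at 8.91 with control and 7.71 with NRF3 siRNA in HCT116, 8.77 and 8.62 in HCT116-p53KO, and 7.80 with GFP and 8.07 with NRF3 in H1299. BUB1, a checkpoint kinase of kinetochores, stood at 10.49 with control and 9.64 with NRF3 siRNA in HCT116, 10.59 and 10.31 in HCT116-p53KO, and 9.04 with GFP and 9.76 with NRF3 in H1299. CDC20, the activator of APC/C, stood at 12.55 with control and 11.90 with NRF3 siRNA in HCT116, 12.64 and 12.42 in HCT116-p53KO, and 10.93 with GFP and 11.39 with NRF3 in H1299. BUB1 was the only one of the 43 genes higher by 1.5-fold in H1299, at 1.64-fold, and it was 1.80-fold lower in HCT116. BUB1B, which holds APC/C inactive, was at -0.64, its partner MAD2L1 at -0.45 and UBE2C, the ubiquitin-conjugating enzyme of APC/C, at -0.40. In HCT116-p53KO all 6 were slightly lower, between -0.28 for BUB1 and -0.01 for MAD2L1. MAD2L1 differed most between the control siRNA arrays, at 0.61 in HCT116-p53KO against HCT116.

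Among cytokinesis genes ANLN, an actin scaffold of the cleavage furrow, stood at 11.01 with control and 9.73 with NRF3 siRNA in HCT116, 10.97 and 10.53 in HCT116-p53KO, and 9.96 with GFP and 10.30 with NRF3 in H1299. ECT2, the activator of RhoA at the furrow, stood at 10.62 with control and 9.39 with NRF3 siRNA in HCT116, 10.44 and 10.04 in HCT116-p53KO, and 9.04 with GFP and 9.46 with NRF3 in H1299. Both were more than 2-fold lower in HCT116 (-1.28 and -1.22) and also lower in HCT116-p53KO (-0.45 and -0.40). PRC1, which bundles midzone microtubules, was at -0.32 and 0.04. All 3 were higher in H1299, by 0.03 to 0.42.

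The 7 spindle microtubule proteins were lower in HCT116, 5 by 1.5-fold, with a median of -0.86. HMMR, a spindle pole adaptor also known as a hyaluronan receptor, stood at 8.35 with control and 6.27 with NRF3 siRNA in HCT116, 7.93 and 7.19 in HCT116-p53KO, and 8.55 with GFP and 8.36 with NRF3 in H1299. It had the largest difference of the 43 genes in HCT116, 4.25-fold, and was 1.67-fold lower in HCT116-p53KO, where its level with control siRNA differed from that of HCT116 by -0.42. DLGAP5, which stabilises kinetochore fibres, stood at 10.16 with control and 9.13 with NRF3 siRNA in HCT116, 10.08 and 9.93 in HCT116-p53KO, and 8.93 with GFP and 8.91 with NRF3 in H1299. CKAP2L, a spindle protein, stood at 9.00 with control and 8.04 with NRF3 siRNA in HCT116, 8.98 and 8.69 in HCT116-p53KO, and 8.23 with GFP and 8.80 with NRF3 in H1299. Its relative CKAP2 was at -0.86 in HCT116 and ASPM, of spindle poles, at -0.81. NUSAP1, which bundles microtubules, and TPX2, the activator of AURKA, were lower by less, at -0.42 and -0.38. In HCT116-p53KO these 4 lay between -0.18 for CKAP2 and 0.18 for ASPM.

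ESCO2, which acetylates cohesin to join sister chromatids, stood at 10.28 with control and 9.21 with NRF3 siRNA in HCT116, 10.43 and 9.84 in HCT116-p53KO, and 7.49 with GFP and 7.62 with NRF3 in H1299. TOP2A, the topoisomerase that untangles chromosomes, stood at 10.03 with control and 9.35 with NRF3 siRNA in HCT116, 10.00 and 10.02 in HCT116-p53KO, and 9.62 with GFP and 9.62 with NRF3 in H1299. ESCO2 was lower by 1.5-fold in both HCT116 lines, as were HMMR and OIP5. TOP2A was 1.61-fold lower in HCT116, and its other 3 HCT116-family arrays lay within 0.03 of each other. ESCO2 and PBK are overlapping genes in RefSeq, so their signals may not be fully separate. The same limit holds for CCNA2, PLK1, KIF20A, KIF15, SPC25, BUB1B, ANLN and CKAP2L, which overlap other protein-coding genes there.

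The knockdown difference was more negative in HCT116 than in HCT116-p53KO for all 43 genes, against 56.5% of 13566 genes expressed in both pairs. It was so by 1.5-fold or more for 25 genes, against 4.18%, and by 2-fold for 7, against 0.332%. The median of this difference of differences was -0.64, and -0.05 over all genes. By class the median was -0.92 for kinesins, -0.83 for cytokinesis genes, -0.68 for spindle microtubule proteins, -0.64 for kinetochore and centromere genes, -0.58 for ESCO2 and TOP2A, -0.48 for cyclins and kinases and -0.46 for the checkpoint and APC/C. NUF2 (-1.41), HMMR (-1.34) and CENPE (-1.25) differed most, and CCNB2 (-0.10), BIRC5 (-0.22) and CDK1 (-0.23) least. No test of this difference was made, since with 1 array per group it leaves no replicate spread.

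**Figure D3:**
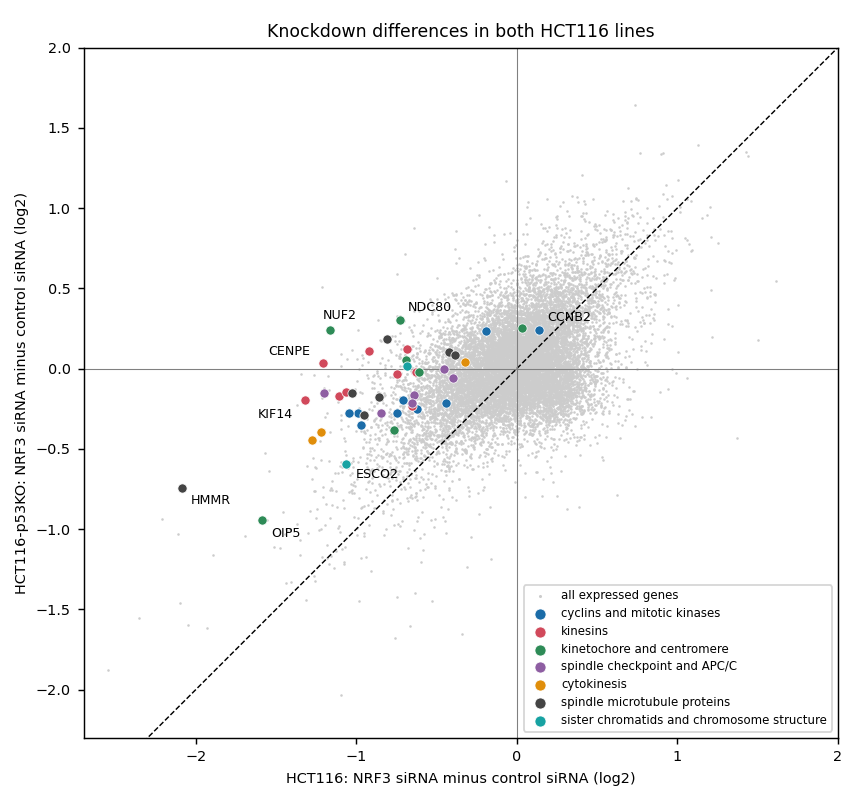
Difference after NRF3 siRNA (log2) in HCT116 (x axis) and HCT116-p53KO (y axis), 1 point per gene, with all 13566 genes expressed in both pairs in grey and the 43 genes coloured by class. All 43 lie above the dashed line of equal differences, 29 of them with both differences below 0.

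With NRF3 siRNA, all 43 genes were higher in HCT116-p53KO than in HCT116 (background 52.8%), with a median of 0.73 and 29 genes at 1.5-fold or more, against 5.60% of 14007 genes. CENPE was 2.47-fold, NUF2 2.38-fold and MAD2L1 2.08-fold higher, the 3 genes past 2-fold, against 0.557% of genes. With control siRNA 23 of 43 were higher (background 51.4%) and 20 lower. MAD2L1 alone was higher by 1.5-fold (background 0.868%), and 0 were lower by that size (background 3.45%). These comparisons share arrays with the knockdown pairs and are other views of the same 4 values.

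**Figure D4:**
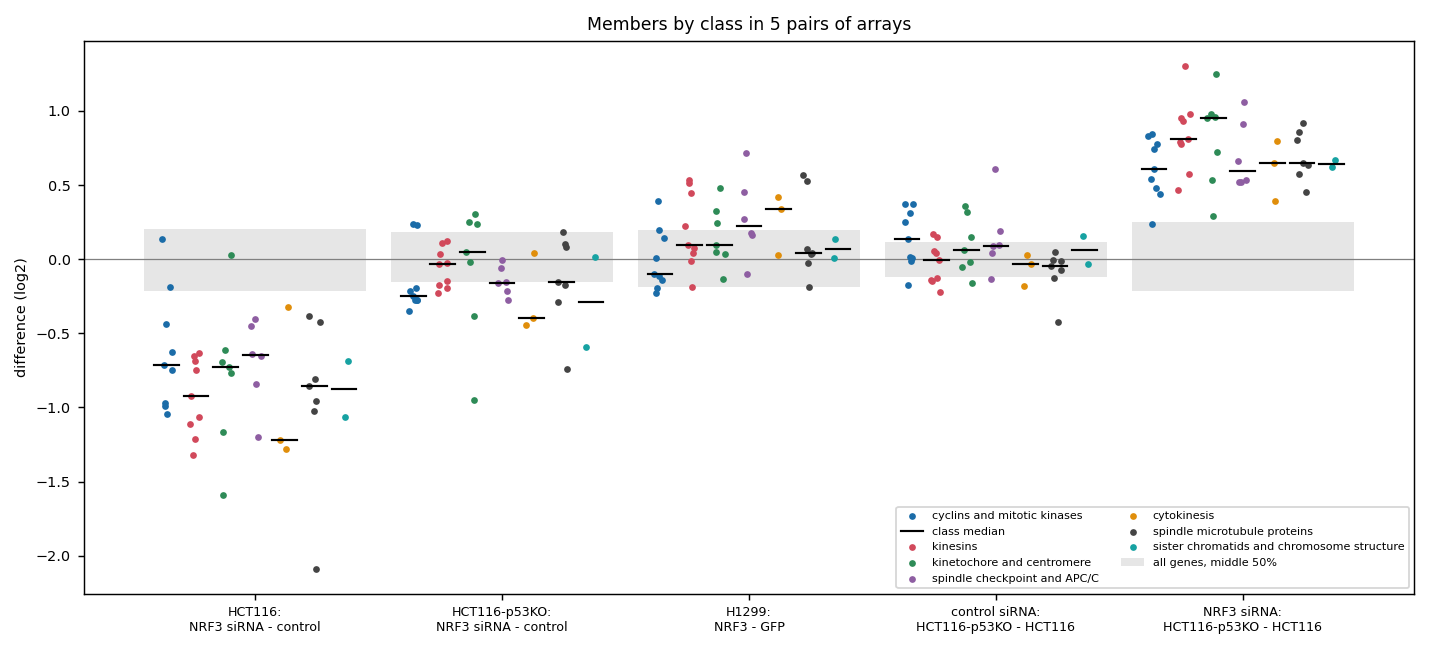
Differences (log2) of the 43 genes in 5 pairs of arrays, coloured by class with the class median as a black bar and the middle 50% of all expressed genes as a grey band. Class medians lie between -1.22 and -0.65 in HCT116 and from -0.40 to 0.05 in HCT116-p53KO.

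A linear model over the 4 HCT116-family arrays with cell line as a block (limma, Benjamini-Hochberg over 14148 genes) tested the mean effect over both lines. By this test 20 of 43 genes fell with NRF3 siRNA and 0 rose, against 5.43% and 4.45% of all genes. HMMR fell by 1.42 (limma adjusted p = 3.84e-15), OIP5 by 1.27 (limma adjusted p = 3.65e-12), ANLN by 0.86 (limma adjusted p = 9.11e-06) and ESCO2 by 0.83 (limma adjusted p = 2.26e-05), each ± 0.16 (SE, n = 2 lines). Among the 20 called, NUF2 and CENPE were higher in HCT116-p53KO (0.24 and 0.04), so their mean was lower through HCT116 alone (-1.17 and -1.21). The fit has 1 residual degree of freedom, which is the line difference itself given above, and its SE is pooled over all genes. The fitted prior had infinite degrees of freedom, so every gene was given the same SE. A gene's own spread between the lines does not enter its p-value, which therefore does not measure replication over the 2 lines. After repeated quantile normalization limma called 7 of the 43. With the spread and degrees of freedom of the 6-array model, limma called 0 of the 43, with 22 lower at an unadjusted p under 0.05. Shares of all genes are not given for these settings, so their counts show only that the calls depend on the setting. When H1299 was added, control siRNA and the NRF3 plasmid counted as more NRF3. There limma called 0 of 43 genes, against 0.00690% of genes higher and 0% lower, with the lowest limma adjusted p at 0.30. At an unadjusted limma p under 0.05 there were 16 of the 43, beside 1615 of all 14492 genes.

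NRF3 expression in H1299 went with small differences. Against 49.4% of all genes, 32 of 43 were higher, and 12 were higher by 0.32 or more, against 15.2% of genes: BUB1, CKAP2L, KIF11, CKAP2, KIF15, NDC80, CDC20, KIF20A, ECT2, CCNA2, ANLN and BIRC5. Class medians in H1299 ran from -0.10 for cyclins and kinases to 0.34 for cytokinesis genes. Every class median was lower after repeated quantile normalization and after loess. They then ran from -0.15 to 0.28 and from -0.13 to 0.28, with spindle microtubule proteins at -0.03 and -0.02 instead of 0.04. The count of 32 is not given for these settings. HMMR and OIP5, the genes most lowered in HCT116, were at -0.19 and 0.25.

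Genes of the same processes outside the list were lower in HCT116 too, by smaller medians. The list was chosen with earlier results of these data known. That choice can by itself leave smaller medians in the remaining genes, so this difference in size is not read as a result. Over all genes, 48.4% were lower in HCT116, 6.02% were lower by 1.5-fold and 2.71% were higher by 1.5-fold. Of 34 other kinetochore and centromere genes with a value 27 were lower and 12 by 1.5-fold, with a median of -0.47. ZW10 of the checkpoint was higher by 1.5-fold (0.60). The lowest were the shugoshins SGO2 (-1.37) and SGO1 (-1.10), which protect centromeric cohesion, and the centromere proteins CENPC (-1.20) and KNL1 (-0.96). Of 37 other spindle, cytokinesis and condensin genes 36 were lower and 14 by 1.5-fold, with a median of -0.47 and ARHGAP11A (-1.01), GAS2L3 (2-fold lower), CDCA2 (-0.93) and KIF20B (-0.87) in front. Of 13 regulators of G2/M entry 12 were lower and 5 by 1.5-fold, among them the phosphatases CDC25C (-1.03) and CDC25B (-0.71), the ubiquitin ligase G2E3 (-0.75) and WEE1 (-0.67), the kinase that restrains CDK1. In HCT116-p53KO the medians of these 3 lists were 0.10, 0.04 and 0.03. There 3 of the 34 kinetochore and centromere genes were higher by 1.5-fold, against 3.63% of all genes. Every measured gene of the 3 lists was more negative in HCT116 than in HCT116-p53KO, against 56.5% of all genes.

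The regulators of the CHR and NF-Y elements differed one by one, with a median of -0.13 in HCT116. Of 17 genes, 2 were higher by 1.5-fold in HCT116 (background 2.71%), RBBP4 (0.64) and NFYA (0.62). By the same size 4 were lower (background 6.02%): E2F5, a DREAM subunit (-0.91), LIN9 of the MuvB core (-0.86), NFYB of NF-Y (-0.82) and FOXM1 (-0.71). In HCT116-p53KO they were at -0.68, -0.05, -0.16 and -0.13. FOXM1 stood at 10.97 and 10.26 in HCT116, 11.12 and 10.99 in HCT116-p53KO and 10.29 and 10.09 in H1299. CDKN1A, which encodes p21 and was named after its values were seen, stood at 9.82 and 9.98 in HCT116, 8.76 and 8.07 in HCT116-p53KO and 7.23 and 7.57 in H1299. Its level was lowest of the HCT116-family arrays with NRF3 siRNA in HCT116-p53KO and differed by 0.16 in HCT116, where the mitotic genes were low. The part of these regulators in the result was not tested.

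Genes of the E2F and replication programme, expressed earlier in the cycle, had a smaller median in HCT116. Here too the lists were chosen with earlier results of these data known, so the sizes of their medians describe these lists only. Of 29 with a value, 20 were lower in HCT116, 2 by 1.5-fold, while 1 was higher by 1.5-fold, with a median of -0.19, and the shares at 1.5-fold were near those of all genes (6.02% and 2.71%). In HCT116-p53KO 24 were higher, against 50.5% of genes, with a median of 0.23. As with the mitotic genes, most were more negative in HCT116 than in HCT116-p53KO, 26 of 29 against 56.5% of all genes, with a median line difference of -0.38. RFC4, a clamp loader subunit, was at -0.66 and 0.24, and CCNE2, cyclin E2, was higher in both lines at 0.70 and 0.64.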

How the data were processed

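Affymetrix arrays were hybridised with targets made from 100 ng RNA, per the labels' protocols. The deposited values are RMA log2 intensities made in Expression Console, as the submitters' processing notes state. The genome build is not stated in the labels. All 6 arrays entered. Of 33297 probe sets, 19460 carry 1 symbol, and 769 of 18417 genes had several, where the highest mean was used.

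A gene entered a comparison when 1 array of the pair reached 6 (log2), and all 43 genes with a value passed on all 6 arrays. limma 3.58.1 in R 4.3.3 was tested on simulated data: of 50 genes changed by 1 (log2), 32 were recovered over 4 arrays and 46 over 6, at 0.5 only 1 and 3 of 50, with 15 false calls in each fit. RMA normalizes arrays to one distribution, so a change common to most genes would not show. Array medians of 6.05 and 6.08 in H1299 against 6.95 to 7.00 elsewhere show that H1299 was not brought to one distribution with the rest. The number of arrays limits the precision.

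The members and lists were chosen with earlier results of these data known. All members are described by class, up to 3 per class array by array by the size of the difference in HCT116, with up to 4 genes of each other list. Alternatives were other filters, fold sizes, probe set means, repeated quantile normalization, loess (span 0.4), other limma priors and a narrower promoter window.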

Additional observations from a re-analysis of the deposited data

Results flagged for a closer look

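For 12 of the 43 genes the difference after NRF3 siRNA had opposite signs in HCT116 and HCT116-p53KO, while 38.3% of 13566 genes did, so the count does not set these genes apart. This was not tested, since each line has 1 array per condition. Subtracting the HCT116-p53KO difference from the HCT116 one gave -1.41 for NUF2, -1.25 for CENPE, -1.03 for KIF18A, -1.03 for NDC80, -0.99 for ASPM, -0.80 for KIF15, -0.74 for CENPF, -0.70 for TOP2A, -0.53 for NUSAP1, -0.46 for TPX2, -0.42 for AURKB and -0.36 for PRC1. The 12 were lower in HCT116, and their differences in HCT116-p53KO were at most 0.30, the value of NDC80. Kinesins and NDC80 complex subunits make up 5 of them.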

How the results depend on the processing

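The median over the 43 genes stayed between -0.81 and -0.69 in HCT116 and between -0.68 and -0.55 for the difference between the lines under every filter, summary and normalization tried, and between -0.02 and 0.04 between the control arrays. Counts moved with the fold chosen. At 2-fold, 13 genes were lower in HCT116 (1.03% of all genes), 0 in HCT116-p53KO (0.431%) and 7 in the difference between the lines (0.332%). At that size 0 were higher in H1299 (0.681%), 0 between the control arrays (0.195%) and 3 between the NRF3 siRNA arrays (0.557%). The counts of 0 are near these shares and do not set the genes apart. At a difference of 0.32 (log2), 7 were lower in HCT116-p53KO (9.18% of all genes) and 40 in the difference (17.4%), 12 were higher in H1299 (15.2%), and 4 were higher (5.27%) and 1 lower (8.86%) between the control arrays, where repeated quantile normalization left 0 higher by 1.5-fold. The limma count of 20 fell to 7 after that normalization and to 0 with the 6-array prior, and the cause was not tested. The 6-array model called 0 of the 43 with HCT116 left out and 0 with HCT116-p53KO left out. With H1299 left out it is the 4-array model with the sign turned, so its 20 genes higher with more NRF3 repeat the same 20. Shares of all genes are not given for the other settings. Of single genes, 18 values crossed below 1.5-fold under loess or quantile normalization, each with the same sign. E2F letters were in 2 promoters in the planned narrower window, against 2.97% of expressed genes. Within 50 bases of the start, a window chosen after seeing the data, NF-Y boxes were in 10 promoters, against 12.4% of expressed genes. Several boxes were in 1 (0.945%), CHR letters with a box in 8 (1.03%), the ARE core in 2 (7.89%) and E2F letters in 1 (1.34%). Cell line is the block in both limma models. No fit with a replicate number as a block was made, since each group has 1 array.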
